A study of Mus musculus with 6 samples.

Results

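The genes described here encode the core proteins of pre-mRNA splicing: the SR proteins, the hnRNP proteins, the SF3 subunits of the U2 particle, and the Sm and other proteins of the small nuclear ribonucleoprotein particles (snRNPs). They were taken by name from the deposited gene table as the protein-coding genes whose symbols begin with Srsf and a number, Hnrnp, Sf3a or Sf3b and a number, or Snrp, leaving out Hnrnpa1, Hnrnpa2b1 and Hnrnpa3. The rule found 49 of 56748 genes, of which 11 were SR, 17 hnRNP, 9 SF3, and 12 Sm or snRNP genes. The rule reads names and gene types only, but the genes were chosen with earlier results of these data known. Of the 49, 48 passed the filter on low counts.

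SR proteins and hnRNPs bind pre-mRNA and influence, often in opposite directions, whether an exon is included. TDP-43, encoded by Tardbp, is itself an RNA-binding protein of the hnRNP kind that controls splicing. Particles built from snRNA and Sm proteins recognize the splice sites, and the SF3A and SF3B complexes anchor the U2 particle at the branch point. Many SR and hnRNP genes carry alternative exons that, when included, send their own mRNA to nonsense-mediated decay, a known form of feedback on their own level. Counts per gene do not tell those transcript forms apart.

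The RNA-Seq libraries came from endothelial cells (ECs) sorted by FACS from spinal cords of P16 mice, 3 control and 3 TDP-43iΔEC, with 1 library for each mouse. Control mice carried floxed Tardbp (Tardbpflox) without Cre, and TDP-43iΔEC mice carried the same floxed gene together with the tamoxifen-inducible Cdh5 promoter-driven CreERT2, which deletes the gene in ECs. The line was kept on a C57BL/6 background, and mice of both sexes were used. Every mouse of both genotypes received tamoxifen (1 mg/mL) from P5 to P7, so the genotypes differ in the presence of Cre as well as in the loss of Tardbp. Libraries were prepared by SMARTseq2 from amounts of RNA and with numbers of PCR cycles that differed between samples, and which library had which is not given in the sources used here.

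Total counts ranged from 44041329 to 47270654 in control and from 25704871 to 45010088 in TDP-43iΔEC mice. Tardbp, the deleted gene, was present at normalized counts (counts divided by a size factor of the library) of 1973, 2282 and 2069 in the controls, in the order of mice 1 to 3, compared with 982, 599.9 and 433 after deletion. Counts cover the whole gene, whereas only exon 3 is flanked by loxP sites. The genotypes did not overlap, yet the log2 fold change of -1.62 had a limma adjusted p of 0.287. Control mouse 2 and TDP-43iΔEC mouse 1 stood apart from the other libraries on the first and the second axis of the multidimensional scaling. Genes with a count numbered 16557, 12972 and 16123 in control mice 1 to 3 and 14473, 15379 and 14103 in TDP-43iΔEC mice. Control mouse 2 thus had the fewest genes detected of all libraries, at 45329494 total counts. EC markers summed to between 9886 and 13243 CPM (counts scaled to a library total of 1000000) in control and between 9017 and 10502 in TDP-43iΔEC mice, and all 6 of these genes were detected. Red blood cell transcripts were at 6935 to 10576 CPM in control and 2034 to 2884 CPM in TDP-43iΔEC mice, and neuronal markers at 3.19 to 10.3 and 0.864 to 2.99 CPM, with Tubb3 listed at 0. These lists did not overlap between genotypes, and the oligodendrocyte lineage list (296 to 591 and 15.5 to 466 CPM) was low in TDP-43iΔEC mice 2 and 3. The 18S rRNA gene Rn18s took 14.8% to 18.5% of counts in control and 8.04% to 13.6% in TDP-43iΔEC mice, also without overlap. With the rRNA, hemoglobin and mitochondrial genes left out of the fit, the median log2 fold change of the splicing factor genes was 0.18 in place of 0.14, 33 of 48 were above 0, and 0 were called. The part of the neuronal and oligodendrocyte lists in the results below was not tested. Mural markers (510 to 885 and 387 to 923 CPM), fibroblast markers (37.4 to 44.2 and 12.6 to 39.8 CPM), astrocyte markers (16.7 to 29.5 and 0.501 to 25.6 CPM), and microglial markers (0 to 1.95 and 0.226 to 8.14 CPM, with Adgre1 listed at 0) overlapped between genotypes. In RNA from a bulk sort, fewer cells of a type and less RNA per cell cannot be told apart.

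Several splicing factor genes are paralogs, so it matters whether 51-base reads can tell them apart. The 90-base coding stretches that follow are shown because their genes lead the hnRNP results and are each set beside a close relative. They were read from GRCm39 and are printed in coding direction, with capitals marking the positions where the 2 aligned genes differ. Those of Hnrnph1 (chr11:50270695-50270784, + strand, exon 4) and Hnrnph2 (chrX:133505957-133506046, + strand, exon 4) matched at 83 of 90 positions.
Hnrnph1: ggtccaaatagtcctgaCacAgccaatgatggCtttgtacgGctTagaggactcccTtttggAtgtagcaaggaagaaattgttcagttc
Hnrnph2: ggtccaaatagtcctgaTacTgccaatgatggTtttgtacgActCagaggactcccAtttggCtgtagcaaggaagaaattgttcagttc
Between Hnrnpdl (chr5:100185751-100185840, - strand, exon 2) and Hnrnpd (chr5:100115157-100115246, - strand, exon 3), 72 positions matched.
Hnrnpdl: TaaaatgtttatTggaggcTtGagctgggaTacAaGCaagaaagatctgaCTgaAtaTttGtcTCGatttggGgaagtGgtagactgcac
Hnrnpd: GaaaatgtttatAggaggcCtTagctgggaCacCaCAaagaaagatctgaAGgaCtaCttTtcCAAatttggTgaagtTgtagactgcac
Hnrnpll (chr17:80356201-80356290, - strand, exon 5) and Hnrnpl (chr7:28514524-28514613, + strand, exon 5) matched at 67.
Hnrnpll: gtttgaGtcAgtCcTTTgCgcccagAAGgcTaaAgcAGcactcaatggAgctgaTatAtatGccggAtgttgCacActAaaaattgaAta
Hnrnpl: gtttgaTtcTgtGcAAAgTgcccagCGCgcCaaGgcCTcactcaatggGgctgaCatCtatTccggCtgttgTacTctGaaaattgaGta
Over whole coding sequences, Hnrnph1 and Hnrnph2 were identical at 85.0% of the positions of the shorter, and Snrpb and Snrpn at 80.5%. The longest identical coding run between any 2 genes of a family was 36 bases, between Hnrnph1 and Hnrnph3, which is shorter than the read. Over whole representative transcripts, untranslated parts included, 30 of the 49 genes had more than 10% of their length in stretches of at least 51 bases at 97% identity or more that other genes or pseudogenes also hold, overlapping genes among them. Over all 49 genes and at any shared length, the counts of such other genes exceeded 10% of the gene's own in 18. Among the 18 were Srsf6, Sf3b3, Hnrnpdl, Snrpa and Hnrnph1, at 1649%, 67.3%, 23.5%, 13.9% and 13.4% of the gene's own counts. For Srsf6 these were 90 genes with 317871 counts against 19271, over 1.96% of its length. The share of length was 3.56% for Sf3b3. Hnrnpd, with 10.6% of its length shared, had 1190 such genes, and the only partner of Hnrnpll had 0 counts. These are counts of whole genes, and how many reads fell in shared stretches cannot be told from them. The share of length was 53.2% for Hnrnph2, whose only such partner, the pseudogene Gm8775, had 7 counts against 22697. It was 53.6% for Srsf3, whose partners had 2709 counts against 54735.

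No gene among the 48 passed the limma test at an adjusted p under 0.05, against 0.137% of the 13107 genes tested. The lowest adjusted p in the group was 0.280, for Hnrnpdl. At an unadjusted p under 0.05, 6 of the 48 (12.5%) were higher in TDP-43iΔEC mice, where 4.26% of all tested genes were, and 0 were lower, where 5% of all were. Those 6 genes were Hnrnpdl, Hnrnph1, Srsf6, Hnrnpll, Sf3b3 and Snrpa. Without TDP-43iΔEC mouse 1, 3 of 48 were higher (6.25%, against 4.03% of all tested genes) and 0 lower (against 2.73%). After removal of the GC and length trend with the replicate number as a block, 2 were higher (4.17%, against 0.969%) and 0 lower (against 1.34%). By edgeR 0 of the 48 were called and 5 had an unadjusted p under 0.05, all higher (10.4%, where 2.72% of all tested genes were higher and 3.75% lower). By DESeq2 2 of the 48 (4.17%) were called higher and 0 lower, where 0.801% and 1.08% of all genes were called. These were Hnrnpdl (adjusted p = 0.0101) and Hnrnph1 (adjusted p = 0.0245).

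All 3 TDP-43iΔEC mice lay above all 3 control mice in 7 of the 48 genes (14.6%), against 7.93% of all tested genes, and below them in 0, against 7.1%. The 7 genes and their log2 fold changes were Hnrnpll (1.64), Hnrnpdl (1.09), Hnrnph1 (1.03), Sf3b3 (0.93), Srsf6 (0.74), Srsf11 (0.63) and Snrpd1 (0.47). For any gene taken alone, the exact permutation p of 3 mice against 3 is at least 0.1. The log2 fold change was above 0 in 32 of the 48 (66.7%), compared with 49.3% of all tested genes. Its median was 0.14 over the 48 and -0.02 over all tested genes.

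**Figure D1:**
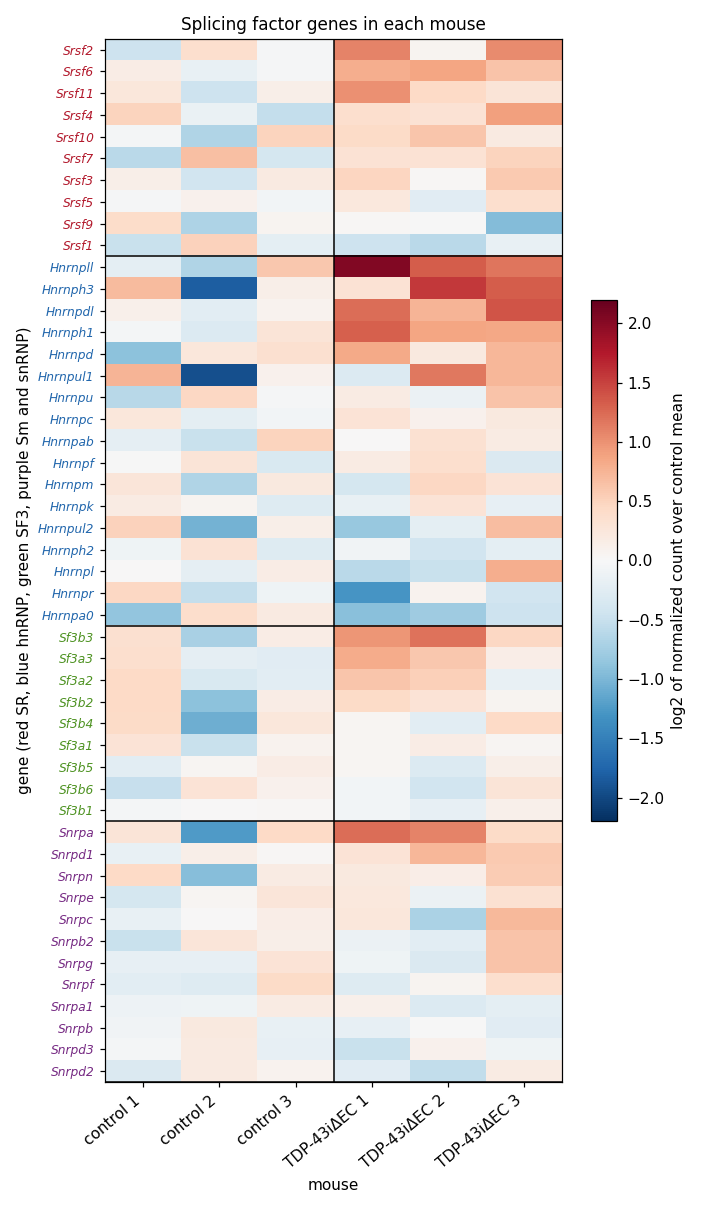
Each row is 1 of the 48 tested splicing factor genes and each column 1 mouse, and the color is the log2 ratio of the normalized count to the mean of the 3 control mice (red above, blue below). Rows are grouped by family and ordered by log2 fold change; Hnrnpll, Hnrnpdl, Hnrnph1 and Srsf6 are red in all 3 TDP-43iΔEC mice, and control mouse 2 is the bluest control for Hnrnph3 and Hnrnpul1.

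By family, the median log2 fold change was 0.44 for the SR genes, 0.17 for the hnRNP genes, 0.15 for the SF3 genes, and 0.02 for the Sm and snRNP genes. The size of these medians depended on control mouse 2, the lowest of the 3 control mice in 24 of the 48 genes (50%), a share close to the 45.6% of all tested genes. Without that mouse the medians were 0.14, -0.03, -0.06 and -0.08 in the same order, 0.03 over the whole group, and -0.17 over all tested genes. In that fit Srsf12 also passed the filter, at a log2 fold change of -0.91. The SR median is then over 11 genes and that of the group over 49, so neither covers the same genes as before. The median of the Sm and snRNP genes was also below 0 without control mouse 1 (-0.10) and without TDP-43iΔEC mouse 3 (-0.12). Without control mouse 2, 9 of the 48 genes lay above both remaining control mice in all TDP-43iΔEC mice (18.8%, against 11.5% of all tested genes) and 1, Srsf9, lay below them (against 11.9%). Srsf2 and Srsf7 joined the 7 genes named above. Over the 6 fits that left out 1 mouse each, Hnrnpdl, Hnrnph1, Hnrnpll, Srsf2, Srsf6 and Snrpd1 stayed within 1.5 times of the log2 fold change over all mice, and 21 of the 48 genes changed sign at least once. Scaling moved the medians as well: with library size only, the 48 genes had a median of 0.34 and all tested genes 0.18, and after scaling to the EC markers 0.37 and 0.22. Under those scalings 41 and 43 of the 48 genes had a log2 fold change above 0, or 85.4% and 89.6%, compared with 58.6% and 61.0% of all tested genes.

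**Figure D2:**
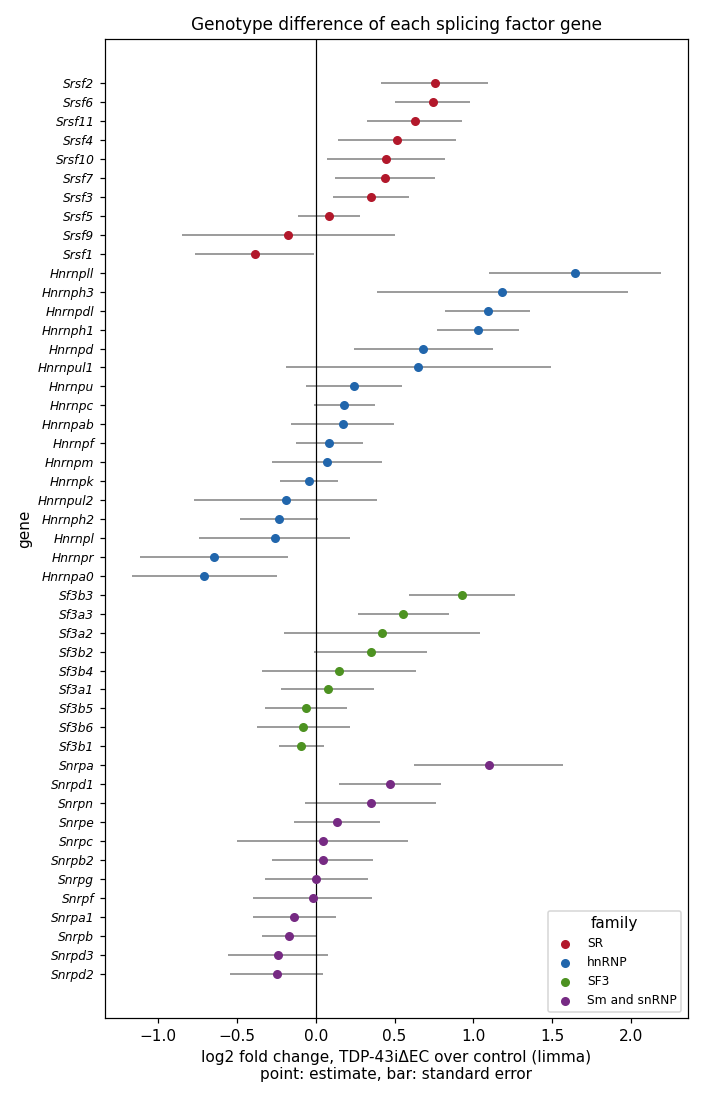
The log2 fold change of TDP-43iΔEC over control from limma is plotted for each of the 48 genes, with its standard error as a bar and the family as the color. SR genes sit mostly to the right of 0 (8 of 10), and the Sm and snRNP genes cluster around 0 with Snrpa as the exception at 1.10.

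Added up over each family, SR transcripts made up 903, 908 and 933 CPM in control mice 1 to 3 and 1276, 968 and 1270 CPM in TDP-43iΔEC mice. The TDP-43iΔEC mice lay higher, although mouse 2 was only slightly above the control range. For the hnRNP genes the sums were 2132, 2048 and 1892 CPM in control and 2197, 2397 and 2151 CPM in TDP-43iΔEC mice, again without overlap. SF3 sums were 1046, 876 and 1042 CPM in control and 1101, 1016 and 1077 CPM in TDP-43iΔEC mice, and those ranges overlapped. Sums for the Sm and snRNP genes were 769.9, 836 and 896 CPM in control and 827, 808 and 922 CPM in TDP-43iΔEC mice, which overlapped too. Scaled by library size alone, neither family overlapped, with SF3 sums of 801 to 1019 CPM in control and 1086 to 1189 CPM in TDP-43iΔEC mice and Sm and snRNP sums of 750.2 to 827 and 892 to 931 CPM. A family sum follows its most abundant genes, and no test was made on it.

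Among the hnRNP genes, Hnrnpdl, Hnrnph1 and Hnrnpll had the lowest p values. Hnrnpdl (ENSMUSG00000029328; chr5:100179317-100187792, - strand) encodes a nuclear RNA-binding protein related to hnRNP D. Its normalized counts, in the order of mice 1 to 3 as in all that follow, were 2347, 1851 and 2290.1 for control and 5069.5, 3637 and 5654 for TDP-43iΔEC. The lowest TDP-43iΔEC mouse was well above the highest control mouse, although 38.4% of the representative transcript lies under exons of Enoph1 on the other strand. Its log2 fold change was 1.09 ± 0.27 (SE, n = 3 per genotype, limma adjusted p = 0.280), and it ranged from 0.89 to 1.32 over the 20 alternatives. Only DESeq2 called it, at an adjusted p of 0.0101, and the adjusted p over the alternatives reached 1.00.

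Hnrnph1 (ENSMUSG00000007850; chr11:50267127-50277364, + strand) encodes a protein that binds runs of G in RNA. Controls showed 2689, 2259 and 3378 normalized counts, compared with 6877, 5086 and 5034 for TDP-43iΔEC. The groups did not overlap, and TDP-43iΔEC mouse 1 was the highest of all. The log2 fold change was 1.03 ± 0.26 (SE, limma adjusted p = 0.287), between 0.69 and 1.26 over the alternatives, and DESeq2 alone called it (adjusted p = 0.0245; up to 1.00 over the alternatives).

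Hnrnpll (ENSMUSG00000024095; chr17:80335472-80370014, - strand), a relative of Hnrnpl known as a regulator of exon choice in lymphocytes, was at 358, 262 and 620.0 normalized counts in control and at 1695, 1036 and 931 in TDP-43iΔEC mice. This was the highest log2 fold change of the 48 genes, at 1.64 ± 0.55 (SE, limma adjusted p = 0.430), with no overlap between genotypes. Control mouse 3 was the highest control, and TDP-43iΔEC mouse 1 the highest of the group. Over the 20 alternatives the value lay between 1.00, without both control mouse 2 and TDP-43iΔEC mouse 1, and 2.00, without control mouse 3.

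Hnrnpd, whose protein binds AU-rich elements that govern mRNA stability, had 480.0, 1078 and 1148 normalized counts in control and 1607, 1042 and 1493 in TDP-43iΔEC mice. TDP-43iΔEC mouse 2 fell within the control range, and the log2 fold change was 0.68 ± 0.44 (SE, limma adjusted p = 0.634), or 0.28 without control mouse 1. Hnrnpf, a relative of Hnrnph1, had the highest level per length of the whole group when divided by the union of its exons. Its normalized counts were 17240.1, 21221 and 13705 in control and 19668, 22487 and 13989 in TDP-43iΔEC mice. The ranges overlapped almost wholly, with a log2 fold change of 0.09 ± 0.21 (SE, limma adjusted p = 0.917).

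The other 12 hnRNP genes had adjusted p values of at least 0.637. Hnrnph3 (log2 fold change 1.18 ± 0.80, SE) and Hnrnpul1 (0.65 ± 0.84, SE) had large standard errors, and in both control mouse 2 was far below its group, at 96.1 and 95.2 normalized counts against 371 or more in the other control mice for Hnrnph3 and 385 or more for Hnrnpul1. Without control mouse 2 the log2 fold change was 0.47 for Hnrnph3 and -0.08 for Hnrnpul1. The lowest values were those of Hnrnpa0 (-0.71 ± 0.46, SE) and Hnrnpr (-0.65 ± 0.47, SE), and genotypes overlapped in both; without TDP-43iΔEC mouse 1 Hnrnpr was at -0.14. Hnrnpk, which binds C-rich RNA and was close to Hnrnpf in level per length, stood at -0.04 ± 0.18 (SE), and Hnrnpc, a binder of U tracts, at 0.18 ± 0.19 (SE). Of the remaining genes Hnrnpu, Hnrnpab and Hnrnpm had log2 fold changes of 0.24, 0.17 and 0.07, and Hnrnpul2, Hnrnph2 and Hnrnpl had -0.19, -0.23 and -0.26.

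**Figure D3:**
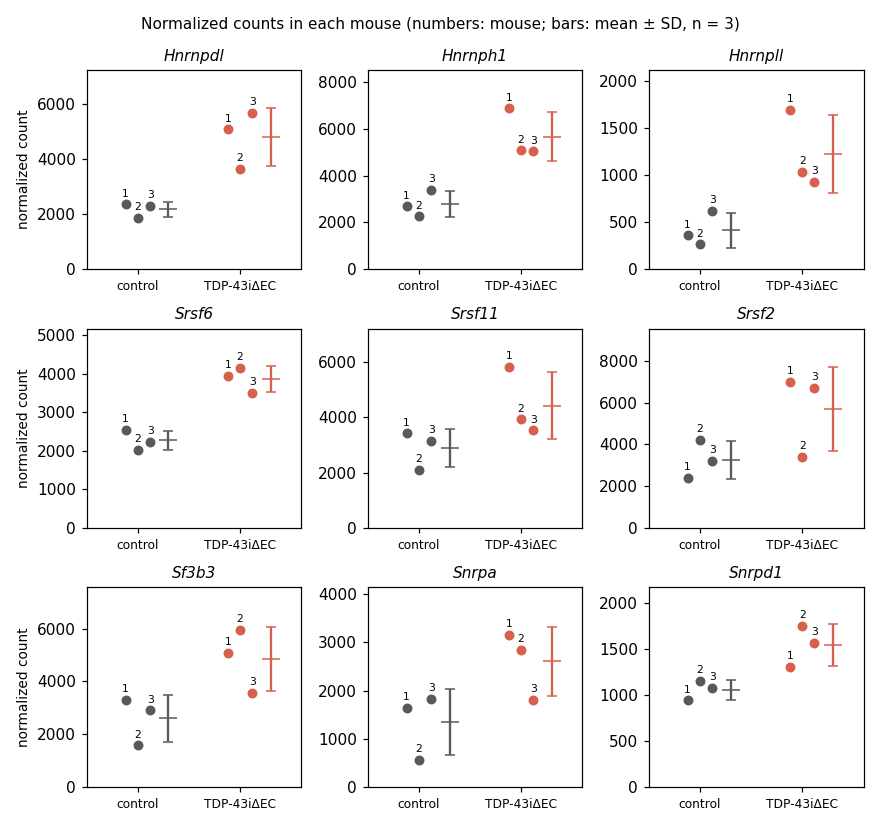
Normalized counts (deposited counts divided by size factors) are plotted for 9 splicing factor genes, with each point a mouse, the number beside it the mouse number, and the bar the mean ± SD of 3 mice. The TDP-43iΔEC points lie above all control points for Hnrnpdl, Hnrnph1, Hnrnpll, Srsf6, Srsf11, Sf3b3 and Snrpd1, whereas for Srsf2 and Snrpa a TDP-43iΔEC mouse falls among the controls.

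Because paralogs in the same mouse share its library, 6 ratios of related genes were formed within each mouse. These pairs were chosen after the values had been seen. The first gene of each was taken from the 6 with an unadjusted limma p under 0.05, all higher in TDP-43iΔEC mice. This choice favors a positive difference, so the p values below are no separate support. The smallest p that the exact permutation test can give is 0.1. The ratio of Hnrnph1 to Hnrnph2 counts was 0.760, 0.482 and 1.09 in control and 1.92, 1.81 and 1.55 in TDP-43iΔEC mice. The ratio was below 1 in control mice 1 and 2 and above 1 in every TDP-43iΔEC mouse, without correction for transcript length. The difference in mean log2 ratio was 1.25 without overlap (exact permutation test, two-sided, p = 0.1, adjusted over the 6 pairs 0.3). The ratio of Hnrnpdl to Hnrnpab was 1.26, 1.21 and 0.759 in control and 2.37, 1.34 and 2.33 in TDP-43iΔEC mice, a difference of 0.90 in log2 ratio, also without overlap (exact permutation p = 0.1, adjusted 0.3). The other pairs overlapped. Their log2 differences were 1.69 for Hnrnpll to Hnrnpl (exact permutation p = 0.2), 0.96 for Snrpa to Snrpb2 (p = 0.3), 0.44 for Hnrnpdl to Hnrnpd (p = 0.4) and 0.18 for Srsf6 to Srsf4 (p = 0.7), with adjusted values from 0.4 to 0.7. Leaving out control mouse 2 lowered the Snrpa to Snrpb2 difference to 0.28 and that of Hnrnpdl to Hnrnpd to 0.15.

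**Figure D4:**
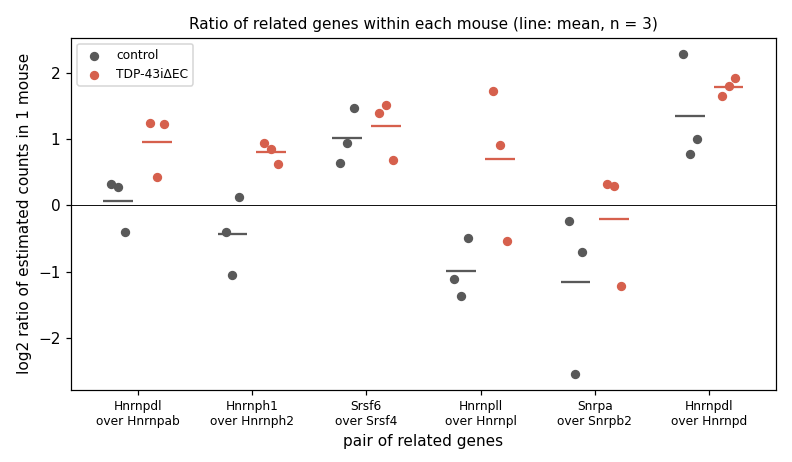
The log2 ratio of the estimated counts of 2 related genes within a mouse is plotted for 6 pairs, with each point a mouse and the line the mean of 3 mice. The TDP-43iΔEC points lie above every control point for Hnrnpdl over Hnrnpab and Hnrnph1 over Hnrnph2, and overlap with them in the other 4 pairs.

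Among the SR genes, Srsf6, Srsf2 and Srsf11 had the lowest p values. Srsf6 (ENSMUSG00000016921; chr2:162773299-162780234, + strand) encodes an SR protein that binds exonic enhancers. Its normalized counts were 2542, 2031 and 2244 in control and 3949.6, 4162 and 3504 in TDP-43iΔEC mice. No mouse crossed between the groups, and the log2 fold change was 0.74 ± 0.24 (SE, n = 3 per genotype, limma adjusted p = 0.401), with a range of 0.62 to 0.98 over the alternatives. Its representative transcript overlapped no exon of another gene, although 1.96% of its length matched stretches of 90 other genes.

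Srsf2, an SR protein found in nuclear speckles, had 2402, 4216 and 3210.4 normalized counts in control and 6989, 3396 and 6702 in TDP-43iΔEC mice. TDP-43iΔEC mouse 2 lay inside the control range while the other two were far above it, and 82.1% of the representative transcript lies under exons of other genes (log2 fold change 0.75 ± 0.34, SE, limma adjusted p = 0.544). Srsf11, an SR-like protein that works with the branch point machinery, was at 3412, 2099.8 and 3141 in control and 5815, 3918 and 3531 in TDP-43iΔEC mice. The groups did not overlap, but control mouse 1 and TDP-43iΔEC mouse 3 were close (0.63 ± 0.30, SE, limma adjusted p = 0.558), and the log2 fold change was 0.39 without control mouse 2 and 0.36 without TDP-43iΔEC mouse 1.

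Srsf3, the SR gene with the shortest coding sequence (492 bases), had 8191, 5589 and 8609 normalized counts in control and 10416, 7609.7 and 11187 in TDP-43iΔEC mice. Mouse 2 was the lowest library in each genotype, and the groups overlapped (0.35 ± 0.24, SE, limma adjusted p = 0.649). Without control mouse 2 the log2 fold change was 0.13. Srsf5, the most abundant SR transcript per length, had 8731, 9460.4 and 8543 in control and 10522, 7458 and 11455 in TDP-43iΔEC mice. TDP-43iΔEC mice lay on either side of the controls (0.08 ± 0.20, SE, limma adjusted p = 0.914).

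Of the other SR genes, Srsf4, Srsf10 and Srsf7 had log2 fold changes of 0.51, 0.45 and 0.44, and Srsf9 and Srsf1 were the SR genes below 0 (-0.17 and -0.39), all with limma adjusted p values of at least 0.668. For Srsf7, control mouse 2 was the highest library of all (5692 normalized counts against 2393 and 2766 in the other control mice), and without it the log2 fold change was 0.79. Leaving out the same mouse gave 0.14 for Srsf10 and -0.13 for Srsf1. Srsf12 failed the filter, with raw counts of 0, 0 and 124 in control and 23, 2 and 0 in TDP-43iΔEC mice.

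Within SF3, Sf3b3 led. Sf3b3 (ENSMUSG00000033732; chr8:111534934-111573677, - strand) encodes a large scaffold subunit of the SF3B complex. Normalized counts were 3306, 1573 and 2904 in control and 5080.1, 5956 and 3555 in TDP-43iΔEC mice. The groups did not overlap, with control mouse 1 just below TDP-43iΔEC mouse 3. Its log2 fold change of 0.93 ± 0.34 (SE, limma adjusted p = 0.471) was 0.58 without control mouse 2.

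The SF3A subunit gene Sf3a3 had 3306, 2223 and 2157 normalized counts in control and 4512, 3842 and 2841 in TDP-43iΔEC mice, where mouse 3 was below control mouse 1 (0.55 ± 0.29, SE, limma adjusted p = 0.578). Sf3b2 had 4451, 1755 and 3692 in control and 4433, 4062 and 3441 in TDP-43iΔEC mice. Apart from the low control mouse 2 its values were alike in range, and the log2 fold change of 0.35 ± 0.36 (SE, limma adjusted p = 0.771) was -0.07 without that mouse. Sf3a2 was at 463, 269 and 288 in control and 516, 488 and 305 in TDP-43iΔEC mice (0.42 ± 0.62, SE, limma adjusted p = 0.841), and its groups overlapped. Its value was 0.23 without control mouse 2 and 0.22 without TDP-43iΔEC mouse 1, and that of Sf3a3 was 0.36 without the latter.

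Sf3b1, the subunit that contacts the branch point, was the most abundant SF3 transcript per length over the exon union and had the smallest standard error of the family. Normalized counts of 16828, 17381 and 17534 were found in control and 16493, 15158 and 18626 in TDP-43iΔEC mice. Control mice differed by little and lay within the TDP-43iΔEC range (-0.09 ± 0.14, SE, limma adjusted p = 0.855). This sign turned to 0.10 with library size scaling and to 0.15 with EC marker scaling. The other 4 SF3 genes, Sf3b4, Sf3a1, Sf3b5 and Sf3b6, had log2 fold changes of 0.15, 0.07, -0.06 and -0.08, with adjusted p values of at least 0.942.

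Most Sm and snRNP genes lay near 0. Snrpa, the gene of the A protein of the U1 particle, had 1640.5, 563 and 1823 normalized counts in control and 3159, 2854 and 1802 in TDP-43iΔEC mice. TDP-43iΔEC mouse 3 was just below control mouse 3, and control mouse 2 was the lowest library. The log2 fold change was 1.10 ± 0.47 (SE, limma adjusted p = 0.530) with all mice and 0.54 without control mouse 2. Snrpd1, an Sm ring protein, had 941, 1155 and 1075 in control and 1303, 1751 and 1568 in TDP-43iΔEC mice. Here the groups did not overlap, at a log2 fold change of 0.47 ± 0.32 (SE, limma adjusted p = 0.649).

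Snrpb, which encodes the Sm B proteins, was the most abundant of this family per length and had 9628, 11735 and 9054 normalized counts in control and 8926, 10127 and 8540.1 in TDP-43iΔEC mice. The groups overlapped (-0.17 ± 0.17, SE, limma adjusted p = 0.760), and with library size or EC marker scaling the value was 0.01 or 0.07. Snrpn, the imprinted relative of Snrpb that is best known from neurons, was at 1893, 732 and 1587 in control and 1631, 1559 and 2062 in TDP-43iΔEC mice. Its log2 fold change of 0.35 ± 0.41 (SE, limma adjusted p = 0.807) turned to -0.08 without control mouse 2. The remaining 8 genes (Snrpe, Snrpc, Snrpb2, Snrpg, Snrpf, Snrpa1, Snrpd3 and Snrpd2) ranged from 0.13 down to -0.25, with adjusted p values of at least 0.807. Among the Sm ring proteins, the log2 fold changes were 0.47 for Snrpd1, 0.13 for Snrpe, 0.0022 for Snrpg, -0.02 for Snrpf, -0.17 for Snrpb, -0.24 for Snrpd3 and -0.25 for Snrpd2.

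Per kilobase of exon union, levels over the 6 mice had a median of 12.6 CPM per kilobase across the 49 genes. Hnrnpf was highest at 54.3, followed by Hnrnpk at 53.6, Srsf5 at 45.8, Snrpb at 44.1 and Sf3b1 at 40.8. Srsf12, which failed the filter, was lowest of all 49 genes at 0.140. Hnrnpf (53.0 ± 10.4 CPM per kilobase in control, SD, n = 3) and Hnrnpk (54.1 ± 8.59) did not differ beyond their spread. These values depend on the length used. Divided by the length of the representative transcript instead, the median was 27.0 CPM per kilobase and Snrpb came first at 228, before Srsf5 at 136, Hnrnpk at 121, Snrpe at 120 and Hnrnpf at 90.1.

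**Figure D5:**
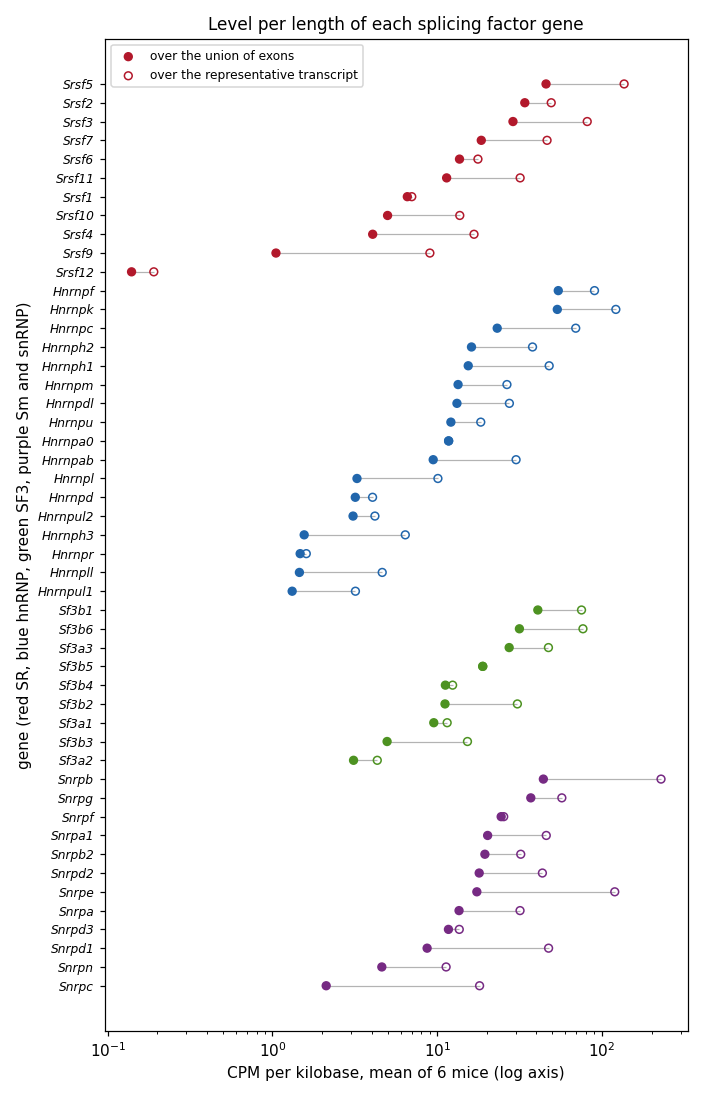
CPM per kilobase, averaged over the 6 mice, is plotted on a log axis for each of the 49 genes, with filled points for the union of exons and open points for the representative transcript. The genes span from 0.140 (Srsf12) to 54.3 (Hnrnpf) over the union, and Snrpb moves to 228 over its representative transcript.

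Overlap with other genes limits some of these values, since SMARTseq2 does not mark the strand. Exons of another gene covered more than 20% of the representative transcript in 13 of the 49 genes: Srsf2 (82.1%), Snrpf (82.0%), Srsf9 (71.7%), Srsf4 (65.3%), Hnrnpdl (38.4%), Hnrnph3 (33.3%), Snrpn (32.7%), Sf3a2 (30.5%), Hnrnpm (29.1%), Hnrnpul2 (29.0%), Hnrnpab (26.8%), Hnrnpu (24.4%) and Srsf5 (22.7%). The share of sequence is not the share of counts: for Srsf4 the overlapping Gm12992 had 38 counts over all mice against 8875. For Hnrnpdl the partner on the opposite strand is Enoph1, with means of 637 normalized counts in control and 969 in TDP-43iΔEC mice, against 2163 and 4787 for Hnrnpdl. Srsf2 lies opposite Mettl23 (1478 and 1294) and Mfsd11 (1006 and 849.8), against 3276 and 5696 for Srsf2. Rufy1, opposite 9.08% of the Hnrnph1 transcript, had means of 609.9 and 236. Except for Enoph1, these partners had lower means in TDP-43iΔEC than in control mice. Snrpa (19.3%), Hnrnpll (10.6%) and Sf3b3 (3.37%) overlapped other genes over a smaller part of their length, but Cog4, opposite Sf3b3, had 15823 counts over all mice, or 67.3% of the 23518 of Sf3b3, with means of 2856 and 2000.2 normalized counts. How many reads of a gene came from its partner cannot be told from these counts.

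The promoters of Hnrnpdl, Hnrnph1 and Srsf6 are printed because these 3 genes had the lowest p values of the group. Each covers 250 bases before and 50 from the annotated start of the representative transcript, on GRCm39 and in the direction of the gene, with capitals for the motifs found. The Hnrnpdl window is chr5:100187743-100188042 (- strand), that of Hnrnph1 chr11:50268068-50268367 (+ strand) and that of Srsf6 chr2:162773163-162773462 (+ strand).
Hnrnpdl: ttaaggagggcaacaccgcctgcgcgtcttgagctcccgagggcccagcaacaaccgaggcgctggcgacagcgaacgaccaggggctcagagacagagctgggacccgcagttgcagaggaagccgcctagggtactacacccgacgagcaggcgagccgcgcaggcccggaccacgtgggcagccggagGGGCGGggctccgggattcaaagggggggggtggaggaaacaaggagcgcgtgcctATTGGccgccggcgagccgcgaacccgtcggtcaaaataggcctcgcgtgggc
Hnrnph1: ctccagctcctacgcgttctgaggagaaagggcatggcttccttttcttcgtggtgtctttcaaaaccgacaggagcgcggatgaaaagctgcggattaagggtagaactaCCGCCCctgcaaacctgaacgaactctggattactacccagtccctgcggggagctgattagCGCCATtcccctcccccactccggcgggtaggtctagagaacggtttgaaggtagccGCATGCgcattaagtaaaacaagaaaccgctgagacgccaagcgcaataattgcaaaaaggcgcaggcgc
Srsf6: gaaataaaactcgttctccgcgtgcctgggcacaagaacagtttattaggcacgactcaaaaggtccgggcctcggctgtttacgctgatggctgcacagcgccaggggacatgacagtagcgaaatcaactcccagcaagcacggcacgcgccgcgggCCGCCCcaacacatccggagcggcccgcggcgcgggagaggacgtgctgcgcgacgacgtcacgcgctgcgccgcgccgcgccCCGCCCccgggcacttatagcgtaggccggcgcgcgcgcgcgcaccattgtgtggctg
Capitals mark GGGCGG (the SP/KLF motif) and CCAAT (NFY) in Hnrnpdl. In Hnrnph1 they mark the SP/KLF motif once together with ATGGCG (YY1) and GCATGC (NRF1), and in Srsf6 the SP/KLF motif alone, each read on both strands. These letters were searched after values had been seen, in the same window of every protein-coding gene. GGGCGG stood in 31 of the 49 promoters (63.3%) and in 42.5% of 21770 protein-coding promoters, and CCGGAA (ETS) in 22 (44.9%) and in 16.9%. The shares were 38.8% and 39.9% for CCAAT, 14.3% and 8.98% for ATGGCG, 8.16% and 8.31% for GCATGC, 6.12% and 13.2% for TATAAA (a core promoter box), and 2.04% and 2.44% for TGACGTCA (CRE). The windows of the splicing factor genes had a median of 21 CpG dinucleotides and 58.7% GC, those of all genes 11 and 54.3%. A match describes the letters and not a bound site.

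Around these 49 genes, 152 other splicing genes were grouped in 10 lists, and 145 of them were tested. By limma, edgeR and DESeq2 0 were called, and by limma 5 (3.45%) had an unadjusted p under 0.05 in the higher and 4 (2.76%) in the lower direction, against 4.26% and 5% of all tested genes. The genotypes did not overlap in 17 (11.7%) higher and 3 (2.07%) lower, against 7.93% and 7.1% of all genes. Their median log2 fold change was 0.16, and 88 (60.7%) were above 0. None of the named genes that follow passed the limma test, since the lowest adjusted p over the lists was 0.360.

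In the U1 and U2 associated factors (20 tested, median 0.26) the lowest p values were those of Prpf39 (0.97) and Htatsf1 (0.82). Sart1 (1.17) and Prpf3 (0.58) led the tri-snRNP proteins (17 tested, median 0.03), where Sart1 had 475, 707 and 503 normalized counts in control and 1471, 1175 and 1086 in TDP-43iΔEC mice, without overlap. For the Prp19 complex and catalytic step proteins (21 tested, median -0.03) they were Aqr (-1.14) and Slu7 (0.82). The LSm proteins (8 tested, median 0.24) had Lsm6 (0.66) and Lsm8 (0.25), and the minor spliceosome proteins (9 tested, median -0.08) had Pdcd7 (4.44) and Zcrb1 (0.73). Pdcd7 was listed at 0 in control mouse 2. Leaving out that mouse gave 1.55 for Pdcd7, 0.38 for Slu7, 0.44 for Htatsf1 and 0.48 for Zcrb1, and leaving out control mouse 1 gave 0.44 for Lsm6 and 0.16 for Lsm8.

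The SMN complex and Sm methylation genes, which assemble Sm rings on snRNA (12 tested, median 0.29), were led by Gemin8 (-5.38) and Gemin4 (-2.70). Gemin8 had 340.2, 465 and 192 normalized counts in control and 1.52, 348 and 0 in TDP-43iΔEC mice, so TDP-43iΔEC mouse 2 was inside the control range while the others were near 0. Without control mouse 2 the median of this list was -0.01. Nktr (0.92) and Srek1 (1.22) had the lowest p values of the SR-related proteins (15 tested, median 0.25), and Prpf4b (0.63) and Clk3 (0.61) those of the kinases and importer of SR proteins (9 tested, median 0.22). Without control mouse 2, Srek1 was at 0.54 and Clk3 at 0.28, and without TDP-43iΔEC mouse 1 Srek1 was at 0.80.

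Of the other splicing regulators (24 tested, median 0.24), Pcbp2, a poly(C)-binding protein, had the lowest p of all 145 genes. Its normalized counts were 8883, 12595 and 10692 in control and 7286, 6163 and 7208 in TDP-43iΔEC mice. All TDP-43iΔEC mice were below all control mice, at a log2 fold change of -0.66 ± 0.19 (SE, limma adjusted p = 0.360). Khdrbs1, the second of that list, stood at 1.18.

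The nonsense-mediated decay factors, which degrade transcripts with early stop codons, had a median of -0.98 (10 tested, 7 below 0), with Smg1 (-1.31) at the lowest p value. Smg1 had 1999, 3497 and 2244 normalized counts in control and 526, 1803 and 1711 in TDP-43iΔEC mice, without overlap, and TDP-43iΔEC mouse 1 was far below the other two. Without that mouse Smg1 was at -0.55 and the median of the list was 0.37, on the other side of 0. Of the other lists, 5 also had a median on the other side of 0 in some fits that left out 1 mouse. For the Prp19 complex and catalytic step proteins it was 0.098 without control mouse 1 and 0.25 without TDP-43iΔEC mouse 1, and for the kinases and importer of SR proteins -0.020 and -0.034 without the same mice. For the tri-snRNP proteins it was -0.078 without control mouse 2 and -0.013 without TDP-43iΔEC mouse 2, and for the minor spliceosome proteins 0.12 and 0.038 without the same mice. The fifth was the SMN complex and Sm methylation list, given above.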

How the data were processed

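RNA-Seq of sorted spinal cord ECs was analysed in 3 control and 3 TDP-43iΔEC mice, grouped by the labels of the samples. The authors sequenced the libraries in paired 51-base reads, aligned them to GRCm39 with STAR 2.7.8a, and quantified GENCODE genes with RSEM 1.3.0. What they deposited were estimated counts, neither scaled nor filtered, of which 0 had a fraction, so no rounding was needed. No molecular identifiers are described, and PCR copies are therefore counted as reads. Total counts ranged from 25704871 to 47270654 per library, and 3 counts corresponded to 0.0635 to 0.117 CPM. The strand was not marked.

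Genotypes were compared with limma 3.58.1 (voom, TMM scaling and filterByExpr of edgeR 4.0.16, default settings, no covariate) in R 4.3.3, the test named in the study's methods, over all 13107 genes that passed the filter. The Benjamini-Hochberg adjustment ran over all of these, with a threshold of 0.05. Normalized counts are counts divided by size factors of DESeq2 1.42.0, and CPM is scaled by TMM. Alternatives were edgeR's quasi-likelihood test, DESeq2, sample weights, other scalings and filters, removal of trends on GC content and length, the replicate number as a block, and leaving out each mouse in turn. The version of the trend removal with voom weights, the fit without both outlying mice, the ratios, the coding comparisons and the promoter motifs were added after the data were seen. The limma, edgeR and DESeq2 fits with default settings were also tested on simulated data, and the other alternatives were not. That simulation took its spread from these same counts and held no outlying mouse. It therefore does not bear on fits with such mice, nor on the genes that DESeq2 alone called.

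Gene positions and sequences came from GENCODE M39 on GRCm39, which matched 98.7% of the gene identifiers and all 49 splicing factor genes. The authors counted genes on an earlier GENCODE release, so lengths and overlaps given here may differ from those behind the counts. Genes shown in every mouse are, per family, the 4 with the lowest p and the one with the highest level per length; genes without overlap between genotypes and genes that failed the filter are named, as are the 2 lowest p values of each of the 10 lists. The splicing factor genes and all lists were chosen with earlier results of these data known. Nothing states that mice came from separate litters, so p values measure the spread between these mice. Reads, transcript forms and protein sequences were not analysed here.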

Additional observations from a re-analysis of the deposited data

How the results depend on the processing

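Of the 48 tested splicing factor genes, 0 were called in either direction by limma under every alternative fitted with it and by edgeR, and DESeq2 called 2 higher. Over all tested genes the counts of 4 called higher and 14 called lower depended strongly on the choices. They were 0 and 0 by edgeR (848 genes at an unadjusted p under 0.05), 105 and 142 by DESeq2, 27 and 49 with no filter on low counts, 10 and 29 with at least 10 counts in every library, 0 and 0 after removal of the GC and length trend without weights, 1 and 0 after scaling to EC markers, and 0 and 0 without both control mouse 2 and TDP-43iΔEC mouse 1. The number called lower was 6 with library size only, 9 with rRNA, hemoglobin and mitochondrial genes left out, and 25 at an adjusted p under 0.1. Leaving out 1 mouse at a time gave 0 to 1 called higher and 0 to 13 called lower. The Tardbp log2 fold change was past the threshold by DESeq2 alone, at -1.65.

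The median log2 fold change of the 48 genes, 0.14, was 0.34 with library size only and 0.37 with EC marker scaling, and between 0.03 and 0.26 with 1 mouse left out. That of the SR genes, 0.44, was 0.63 and 0.70 under these scalings and 0.27 after removal of the GC and length trend. It was 0.14 to 0.45 with 1 mouse left out and 0.13 without both outlying mice. In the fits without control mouse 1 or 2 or TDP-43iΔEC mouse 2 or 3, Srsf12 entered these medians, with 49 genes tested. For the hnRNP genes EC marker scaling gave 0.40, for the SF3 genes leaving out 1 mouse gave -0.063 to 0.42 (-0.098 without both outlying mice), and for the Sm and snRNP genes library size gave 0.22 and EC markers 0.26. The other splicing lists had a median of 0.35 and 0.40 under these scalings and of 0.065 to 0.20 with 1 mouse left out. Without control mouse 2, 1 splicing factor gene in place of 0 lay wholly below the controls. Length of the representative transcript in place of the exon union raised the median level of the 48 tested genes from 12.6 to 27.0 CPM per kilobase. It raised Srsf5 to 136, Hnrnpf to 90.1, Sf3b1 to 75.2 and Snrpb to 228.

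With 1 mouse left out, 21 of the 48 genes changed sign at least once; of the 23 with a log2 fold change over 0.3 in size these were Hnrnpul1, Sf3b2 and Snrpn. Among the genes shown in every mouse and the named list genes, the values past 0 were these. The Hnrnpf log2 fold change was -0.065 without control mouse 3 and -0.036 without TDP-43iΔEC mouse 2, and the Sf3b1 log2 fold change was 0.10 and 0.15 with library size and EC marker scaling. The Sf3b2 log2 fold change ranged from -0.074 to 0.62 with 1 mouse left out, the lowest without control mouse 2, and was -0.17 without both outlying mice. The Snrpn log2 fold change ranged likewise from -0.079 to 0.62 and was -0.025. The Snrpb log2 fold change was 0.014 and 0.070 under the 2 scalings and 0.091 after the weighted trend removal. The Srsf5 log2 fold change was -0.044 after the trend removal and -0.0039 to 0.25 with 1 mouse left out, below 0 without TDP-43iΔEC mouse 1 (-0.0039) or mouse 3 (-0.00090), and the Lsm8 log2 fold change was -0.079 after the trend removal. The cause was not tested in any of these.

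Same-numbered mice of the genotypes did not deviate together (correlations of -0.061, -0.11 and -0.021), so the main fit did not pair them. With 3 mice per genotype this check cannot tell whether same-numbered mice were littermates, which the sources do not state. With the replicate number as a block, 3 genes were called higher and 19 lower, 0 of them splicing factor genes, and the median of the 48 was 0.15. The trend removal combined with the block gave 0 and 0, with medians of 0.27 for the SR genes and 0.077 for the other lists, a Srsf5 log2 fold change of -0.0032 and a Lsm8 log2 fold change of -0.13.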
